A study of Mus musculus with 6 samples.

Results

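Basement membranes are thin sheets of matrix on which epithelial, endothelial and muscle cells rest. Laminins, trimers of an alpha, a beta and a gamma chain, polymerise at the cell surface, and collagen IV forms a second network that is linked to them by nidogens and by perlecan, a heparan sulphate proteoglycan. In the ovary such sheets lie under the surface epithelium, around follicles and around blood vessels. The 10 genes described here encode the collagen IV chains Col4a1 and Col4a2, the laminin chains Lama4, Lama5, Lamb1, Lamb2 and Lamc1, the nidogens Nid1 and Nid2, and perlecan (Hspg2). They were taken by symbol, with every probe set annotated to exactly 1 of them. This gave 21 of the 45037 probe sets on the arrays, and all 10 genes out of 18193 had at least 1. Of these, 17 probe sets of 9 genes passed a filter on dim probe sets. The single probe set of Nid2 did not pass.

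The samples were labelled as primary ovarian surface epithelium cells of virgin FVB/N mice aged 8 weeks, without a transgene or treatment named in the labels. Ovaries were digested, and the released cells were kept for 24 hours on gelatin and stained with ALDEFLUOR, which turns fluorescent in cells with aldehyde dehydrogenase (ALDH) activity. Flow cytometry, with inhibitor-treated and unstained cells as controls, separated ALDH-positive from ALDH-negative cells. Each fraction was measured on 3 Affymetrix Mouse Genome 430 2.0 arrays, 1 per pool of 10 mice, so that the 6 arrays formed 3 pairs. All values below are log2 signals after quantile normalization, and all differences are ALDH-positive minus ALDH-negative within a pool. The number of arrays limits the precision, since an exact sign-flip permutation test over 3 pools cannot give a two-sided p below 0.25. In such bulk samples fewer cells of a type and less RNA per cell cannot be told apart.

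In pool 2 the ALDH-negative array was unlike the others, with correlations of 0.558 to 0.679 to them, whereas those correlated at 0.850 to 0.974 among themselves. Its signal for the 3' control probe set of beta-actin was 5.03 as deposited, against 9.56 to 11.04 elsewhere. Differences of pool 2 rest on that array, so values for pools 1 and 3 alone are given beside the mean differences of the members. In pool 3 the 5' control signal of Gapdh was also low, at 6.63 on its ALDH-negative and 5.20 on its ALDH-positive array, against 7.92 to 10.30 on the other arrays. Markers of the labelled cell type differed between the fractions. All 12 surface epithelium and mesothelium genes read higher in ALDH-positive cells in every pool, and their mean level over the list was 3.69 to 3.92 on ALDH-negative and 7.16 to 7.61 on ALDH-positive arrays.

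Across all probe sets tested, limma, fitted with pools as blocks and adjusted by the Benjamini-Hochberg method, called 0 of 27022 (0%) at a threshold of 0.05, and therefore none of the 17 member probe sets. At an unadjusted p below 0.05, 3 member probe sets were higher in ALDH-positive cells, against 2.04% of all probe sets in that direction, and none were lower, against 0.403%. These 3 belonged to Lamb1, Lamc1 and Nid1. Limma's array weights were 1.30, 0.16 and 4.87 for both arrays of pools 1, 2 and 3, so a weighted fit rests mostly on pool 3. With these weights the fit called 10.9% of all probe sets and, of the members, the same 3 probe sets. Leaving pool 2 out without weights called 0 probe sets. Of the 9 genes tested, each by its probe set of highest mean, 5 were higher in ALDH-positive cells in all 3 pools (11.3% of the 12814 genes tested) and none were lower in all 3 (11.4%). The 5 were Col4a2, Lamb1, Lamc1, Nid1 and, except with arrays centred on their medians, where its pool 1 difference was -0.05, Col4a1. Lama5 was also higher in all pools in the values as deposited and with median centring. The counts were then 6 and 5 of 9, against 11.6% and 12.5% of all genes. Over all genes tested the median pool 2 difference was -0.18 after quantile normalization, 0.48 as deposited and 0.90 with median centring. The pool 2 differences of Lama5, 0.21 as deposited and 0.63 with median centring, were below these medians. The median difference of the 9 genes was 0.19, against -0.08 over all genes tested, and it was 0.18, 0.41 and 0.58 in pools 1, 2 and 3. In pools 1 and 3 alone, 6 of the 9 were higher in both (27.8% of all genes), with a median of 0.34 against 0.04. The members were chosen with earlier results of these data known. Their shares and medians beside those of all genes are therefore descriptions, and enrichment was not tested.

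**Figure D1:**
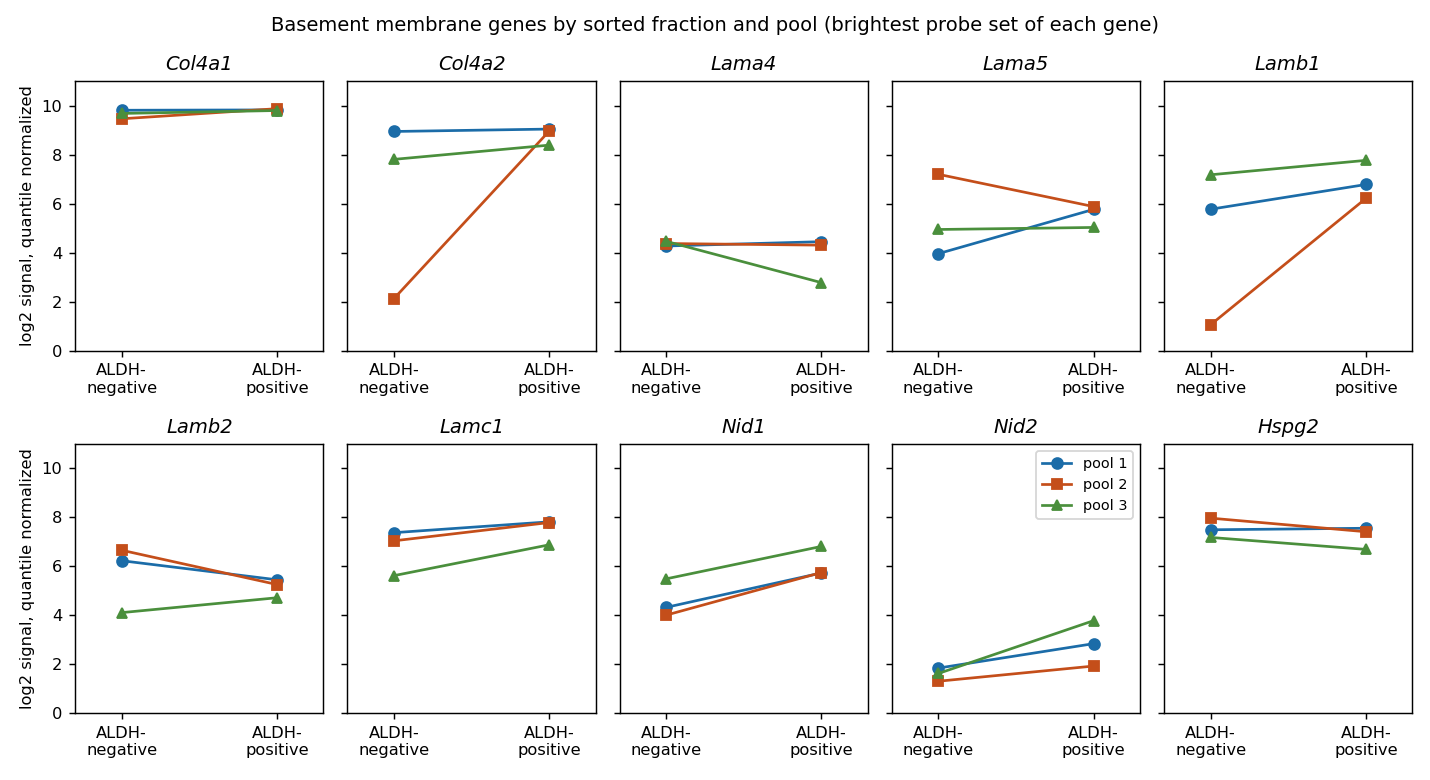
Each panel plots the log2 signal of 1 gene in the ALDH-negative and ALDH-positive cells of each pool, with a line joining the arrays of a pool, for the probe set of highest mean. Nid1 shows no overlap between the fractions, nor does Nid2, which overlaps in the values as deposited. Col4a1 is near level here, although its pool 2 difference was 1.93 in the values as deposited, and the pool 2 lines of Col4a2 and Lamb1 start from 2.12 and 1.06 on the ALDH-negative side. Levels are comparable within a panel, not between genes.

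Collagen IV was bright in both fractions. Col4a1 and Col4a2 encode the alpha chains of the most widespread collagen IV trimer, and their genes lie head to head on chromosome 8. RefSeq (GRCm38.p6) places the annotated start of Col4a2 on the plus strand at position 11312805 and that of Col4a1 on the minus strand at 11312826, so that 30 bases hold both. They are shown because the pair shares its start region, on the plus strand at chr8:11312801-11312830, with the sequence GGGCGG, known as a GC box, in capitals.
Col4a2 and Col4a1 starts: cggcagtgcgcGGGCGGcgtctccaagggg

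At its brighter probe set Col4a1 read 9.81, 9.46 and 9.68 on the ALDH-negative and 9.82, 9.87 and 9.80 on the ALDH-positive arrays of pools 1, 2 and 3. The fractions overlapped, and the mean difference was 0.18 (SE 0.63, n = 3 pools, limma adjusted p = 0.952), and 0.067 in pools 1 and 3 alone. It was larger in the values as deposited (0.70), with arrays centred on their medians (0.86) and over the mean of both probe sets (1.14). This gene varied little between the ALDH-positive arrays (SD 0.04). A second Col4a1 probe set read 8.87, 2.57 and 8.70 on the ALDH-negative and 8.60, 8.65 and 9.18 on the ALDH-positive arrays. It was therefore low on 1 array alone, the ALDH-negative array of pool 2. There the first probe set read 9.46 after quantile normalization, but 8.22 as deposited, against 9.76 to 10.16 on the other arrays. Its differences were -0.28, 6.08 and 0.48.

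Col4a2, measured by 1 probe set, had the same shape as that second probe set. It read 8.94, 2.12 and 7.80 on the ALDH-negative and 9.04, 8.96 and 8.39 on the ALDH-positive arrays. The mean difference of 2.50 (SE 1.29, n = 3 pools, limma adjusted p = 0.895) came from pool 2, at 6.83, while pools 1 and 3 gave 0.10 and 0.58. Without pool 2 the difference was 0.34, a 1.27-fold higher signal in ALDH-positive cells.

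The beta 1 and gamma 1 laminin chains read higher in ALDH-positive cells. Lamc1 encodes the gamma 1 chain, which is part of most laminin trimers, and it differed in the same direction in every pool at both of its probe sets. The brighter read 7.37, 7.04 and 5.62 on the ALDH-negative and 7.81, 7.78 and 6.88 on the ALDH-positive arrays. The differences were 0.44, 0.75 and 1.26, with a mean of 0.82 (SE 0.64, n = 3 pools, limma adjusted p = 0.895), and 0.85 in pools 1 and 3. The mean was 1.44 in the values as deposited and 1.60 with arrays centred on their medians. After quantile normalization the fractions overlapped, with pool 3 lower than the others in both. The dimmer probe set read 6.56, 4.48 and 5.87 on the ALDH-negative and 7.46, 7.20 and 7.72 on the ALDH-positive arrays. Here each ALDH-positive array was above each ALDH-negative one. The mean was 1.82 (SE 0.69, limma adjusted p = 0.895), and pools 1 and 3 alone gave 1.38, a 2.60-fold difference. Such separation with ALDH-positive cells higher occurred at 2 of the 17 member probe sets tested, against 3.49% of all probe sets.

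Lamb1 encodes the beta 1 chain, a partner of gamma 1. Its brightest probe set read 5.77, 1.06 and 7.18 on the ALDH-negative and 6.78, 6.21 and 7.76 on the ALDH-positive arrays, with differences of 1.01, 5.15 and 0.59. The signal on the ALDH-negative array of pool 2 was the lowest of the 6 by a wide margin. The mean of 2.25 (SE 0.98, n = 3 pools, limma adjusted p = 0.895) was 0.80 without that pool. The second probe set read 5.08, 2.13 and 5.56 on the ALDH-negative and 5.81, 5.02 and 7.59 on the ALDH-positive arrays. It gave 0.73, 2.89 and 2.03, with a mean of 1.89 (SE 0.71, limma adjusted p = 0.895), and 1.38 in pools 1 and 3. The next gave 0.76, 2.31 and 0.49. All 3 bright probe sets of Lamb1 were thus higher in ALDH-positive cells of every pool. The fourth, which gave -0.097, -0.24 and -0.76, read below 1.73 on all arrays and was not tested.

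The other laminin chains showed no common direction. Lama5 encodes the alpha 5 chain, the main alpha chain of many adult epithelial basement membranes. Its brightest probe set read 3.96, 7.20 and 4.94 on the ALDH-negative and 5.77, 5.88 and 5.03 on the ALDH-positive arrays. ALDH-positive cells were higher by 1.81 in pool 1 and nearly level in pool 3 (0.08), while pool 2 gave -1.32. That pool 2 difference was 0.21 in the values as deposited and 0.63 with arrays centred on their medians. The median pool 2 difference over all genes tested was higher under these scalings, at 0.48 and 0.90. The mean difference of Lama5 was 0.19 (SE 0.79, n = 3 pools, limma adjusted p = 0.961), against 0.94 in pools 1 and 3 alone, 0.73 as deposited and 0.89 with median centring. A second probe set was higher in every pool (2.00, 1.34 and 0.35, with a mean of 1.23 and SE 0.68, limma adjusted p = 0.895, and 1.18 in pools 1 and 3). The remaining one gave 0.33, -2.08 and 0.29. All Lama5 probe sets were thus above 0 in pools 1 and 3, and they differed in sign in pool 2.

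Lama4 encodes the alpha 4 chain, found in the basement membranes of vessels and of mesenchymal cells. It read 4.27, 4.37 and 4.46 on the ALDH-negative and 4.45, 4.31 and 2.78 on the ALDH-positive arrays. Only the ALDH-positive array of pool 3 departed from the rest, and the mean difference was -0.52 (SE 0.70, n = 3 pools, limma adjusted p = 0.896), or -0.75 in pools 1 and 3 and -0.27 with arrays centred on their medians. The other Lama4 probe set was too dim to be tested. Lamb2, the beta 2 chain known from the neuromuscular junction and the kidney glomerulus, read 6.23, 6.66 and 4.11 on the ALDH-negative and 5.45, 5.26 and 4.72 on the ALDH-positive arrays. Pool 3 was the lowest in both fractions. The differences of Lamb2 were -0.78, -1.40 and 0.61, with a mean of -0.52 (SE 0.70, n = 3 pools, limma adjusted p = 0.897). This mean was -0.086 in pools 1 and 3 alone, -0.21 in the values as deposited and -0.039 with median centring.

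**Figure D2:**
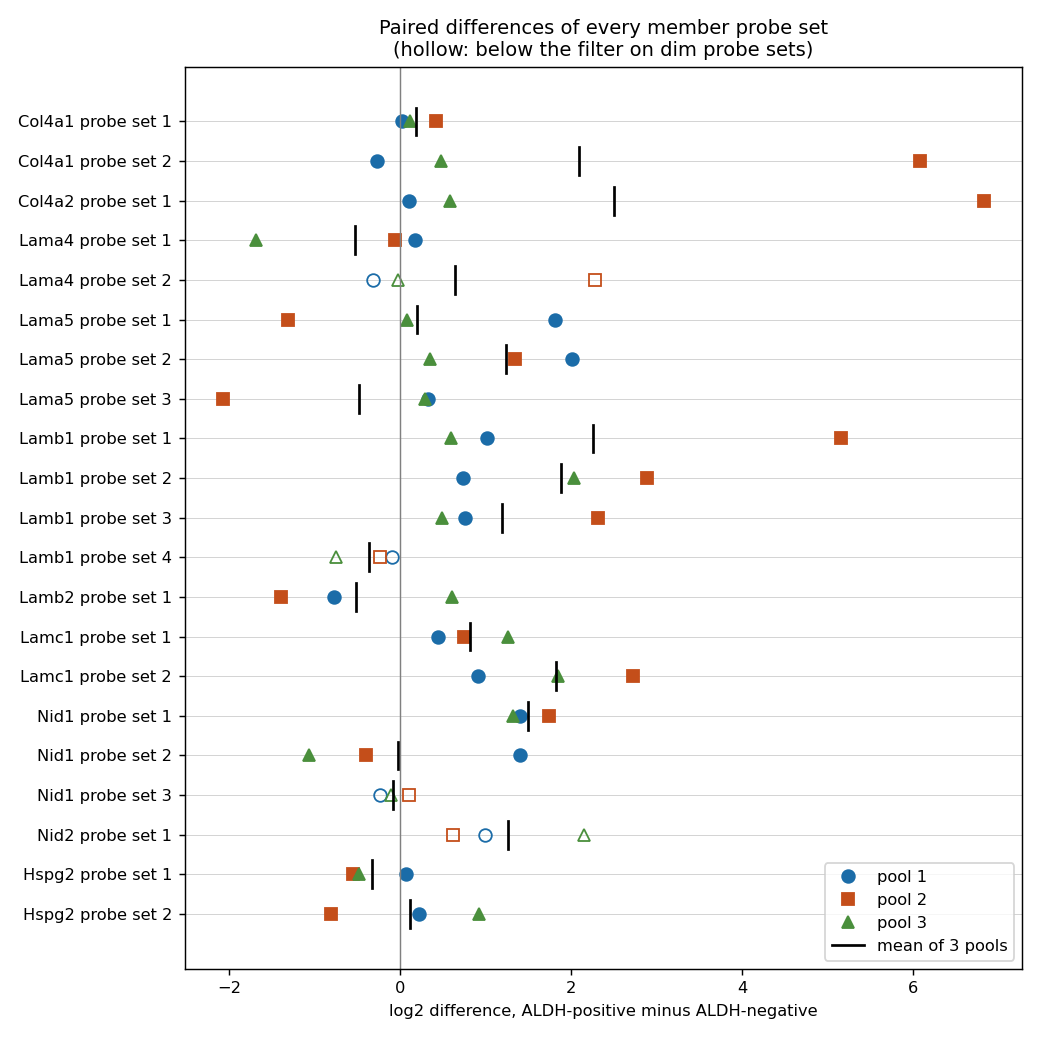
Points give the log2 difference, ALDH-positive minus ALDH-negative, of every member probe set in each of the 3 pools, and black bars their mean; hollow points mark probe sets below the filter. Probe sets are numbered within a gene from the highest mean signal. All tested probe sets of Lamb1 and Lamc1 and the first of Nid1 lie to the right of 0 in all pools, and the largest values, 6.83 for Col4a2 and 6.08 for Col4a1, are those of pool 2.

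Among the tested probe sets of the linking proteins, the brightest of Nid1 had the closest agreement between pools. Nid1 encodes nidogen 1, which binds the gamma 1 laminin chain and collagen IV. Its brightest probe set read 4.33, 4.01 and 5.49 on the ALDH-negative and 5.73, 5.75 and 6.81 on the ALDH-positive arrays, so that the fractions did not overlap. It was the 1 gene of the 9 tested with this separation at its brightest probe set, against 3.55% of all genes. The differences were 1.40, 1.74 and 1.32 (SD 0.22), with a mean of 1.49, a 2.81-fold higher signal (SE 0.63, n = 3 pools, limma adjusted p = 0.895). Pools 1 and 3 alone gave 1.36. The SE exceeds the spread of the pools because limma draws each variance towards the value shared by all probe sets. As deposited, before quantile normalization, this probe set read 4.60, 4.00 and 5.28 against 5.94, 6.05 and 6.94, again without overlap.

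A second Nid1 probe set, nearly as bright with a mean signal of 5.05 against 5.35, did not show this difference (SD between pools 1.28). It read 4.27, 5.60 and 5.30 on the ALDH-negative and 5.68, 5.20 and 4.23 on the ALDH-positive arrays, which gave 1.40, -0.40 and -1.07 and a mean of -0.02 (SE 0.74, limma adjusted p = 0.995). Pools 1 and 3 alone gave 0.17. In the values as deposited its pool 2 difference was 0.56, against a median of 0.48 over all genes tested. Both probe sets were thus higher by the same amount in pool 1 and diverged in the others. The last was below 1.12 on every array. Nid2, which encodes the related nidogen 2, read 1.85, 1.31 and 1.63 on the ALDH-negative and 2.85, 1.93 and 3.78 on the ALDH-positive arrays. ALDH-positive cells were higher by 1.00, 0.62 and 2.15, but 4 of the 6 values lay below the filter level of 2.73, and Nid2 was not tested. In the values as deposited its pool 2 difference was -0.06 and the fractions overlapped.

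The 150 bases before the annotated start of Nid1 are shown because Nid1 was the member, of the 9 tested, that separated the fractions at its brightest probe set. They lie on the plus strand at chr13:13437452-13437601 (RefSeq, GRCm38.p6), and the capitals mark ATTGG, which is CCAAT on the other strand, and GGGCGG.
Nid1 upstream: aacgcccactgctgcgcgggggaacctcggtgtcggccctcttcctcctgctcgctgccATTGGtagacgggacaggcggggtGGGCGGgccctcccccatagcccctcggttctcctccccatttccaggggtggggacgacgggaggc

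Windows of 300 bases around an annotated start were at hand for 7 of the 10 genes, namely Col4a1, Col4a2, Lama5, Lamb1, Lamb2, Nid1 and Hspg2. On either strand, GGGCGG occurred in 6 of these 7 windows and in 35.7% of all 32851 windows, CCAAT in 4 and in 37.4%, and TATAAA in none and in 13.6%. The CCAAT windows were those of Col4a1, Col4a2, Lamb1 and Nid1, while the Lamb2 window held neither GGGCGG nor CCAAT. The windows of Col4a1 and Col4a2 share 78 bases and are not independent. A match of letters is a description and shows no binding.

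Hspg2 encodes perlecan, which anchors both networks and binds growth factors through its heparan sulphate chains. Its brighter probe set read 7.49, 7.97 and 7.18 on the ALDH-negative and 7.55, 7.41 and 6.69 on the ALDH-positive arrays. The differences were 0.06, -0.56 and -0.49, with a mean of -0.33 (SE 0.64, n = 3 pools, limma adjusted p = 0.918), -0.21 in pools 1 and 3 alone, but 0.32 in the values as deposited and 0.49 with arrays centred on their medians. The other Hspg2 probe set gave 0.22, -0.81 and 0.92.

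The members varied between pools as well as between fractions. At their brightest probe sets Nid1 and Lamb1 read highest in pool 3 in both fractions, while Lamc1 and Lamb2 read lowest there in both. The members did not move as a block. The mean profile of the 9 genes over the 6 arrays, each gene centred on its own mean, was lowest on the ALDH-negative array of pool 2 (-0.89) and 0.11 to 0.50 on the ALDH-positive arrays. By Euclidean distance to this profile Col4a1 was the closest member (0.79), and Lamb1 (4.57) and Col4a2 (5.01) were the farthest. The closest pair of members was Lama4 and Hspg2, at a distance of 0.94. The 5 other genes closest to the mean profile were Pa2g4, Phf6, Acsl4, Pml and Tmem170, at distances of 0.22 to 0.40. All points share the arrays, so these distances describe the 6 samples.

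Of the 10 remaining laminin and collagen IV chains 7 were tested, and none passed the threshold in either direction. At the probe set of highest mean, used here for each gene outside the members, 5 were higher and 2 lower in the mean. The median difference was 0.10 (0.36 in pools 1 and 3), with 1 gene higher in all 3 pools. That gene was Col4a5, a chain of the collagen IV of several specialised membranes, with 6.62, 3.74 and 7.31 on the ALDH-negative and 6.95, 6.40 and 7.70 on the ALDH-positive arrays. Its mean of 1.13 (SE 0.75, limma adjusted p = 0.895) was 0.36 without pool 2. The other Col4a5 probe set gave 0.20, 5.00 and -1.22, and was thus not higher in pool 3. Col4a6, the partner of Col4a5 in one such trimer, differed by 0.06, 1.86 and -0.95 at its brighter probe set. At the other it was higher in every pool, by 0.34, 3.91 and 1.31 (mean 1.85, SE 0.84, limma adjusted p = 0.895). Lama1, the alpha 1 chain typical of embryonic membranes, read 4.82 to 6.22 on the ALDH-negative and 5.38 to 5.999 on the ALDH-positive arrays. Lama3 and Lamb3, chains of the epidermal laminin of hemidesmosomes, read no higher than 3.02 and 3.85 on any array.

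Of 18 other basement membrane proteins 13 were tested, none passed, and the median difference was -0.32, but 0.15 in pools 1 and 3 alone. Fbln2, a fibulin that binds nidogens and laminins, was higher in every pool (1.38, 2.16 and 1.03, with a mean of 1.52, SE 0.65, limma adjusted p = 0.895). Its values were 4.61, 3.74 and 2.77 on the ALDH-negative and 5.99, 5.90 and 3.80 on the ALDH-positive arrays, and the fractions overlapped. Sparc, a collagen-binding glycoprotein, gave -0.07, 3.49 and 0.74. Agrn, the proteoglycan agrin, gave 0.90, 3.49 and -0.41. Col15a1, a collagen of the outer face of basement membranes, was lower in every pool (-0.26, -2.70 and -0.82), with every ALDH-positive array narrowly below every ALDH-negative one, and with overlap in the values as deposited. The related Col18a1 differed by -0.32, -1.65 and 0.62. Ntn4, a netrin that disrupts laminin networks, gave -1.29, 0.34 and -2.61. Egfl6, a secreted matrix protein, had a mean of 2.42 over the 6 arrays, below the filter level, and was not tested. It read 1.08, 1.81 and 1.28 on the ALDH-negative and 2.77, 4.06 and 3.50 on the ALDH-positive arrays.

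Of 13 receptors of laminin and collagen IV, 11 were tested and none passed (median 0.58, and 0.52 in pools 1 and 3). Their medians in the single pools were 0.35, 0.63 and -0.03. Of the 11, 1 was higher in all 3 pools, against 11.3% of all genes, and 3 were higher in both pools 1 and 3, against 27.8%. Itga6, the alpha 6 integrin subunit of laminin receptors, was higher in every pool, by 0.63, 0.79 and 1.45 (SE 0.64, limma adjusted p = 0.895). It read 6.21, 6.03 and 5.90 on the ALDH-negative and 6.84, 6.82 and 7.35 on the ALDH-positive arrays, without overlap. Its partner Itgb1 gave -0.16, 1.83 and 1.30, and Dag1, which encodes dystroglycan, -0.25, 2.11 and 0.77. All 12 genes of collagen modification and secretion were tested, and none passed (median 0.43, and 0.40 in pools 1 and 3). The single pools gave medians of -0.04, 1.32 and 0.63. Serpinh1, the collagen chaperone of the endoplasmic reticulum, was higher by 0.79, 5.59 and 0.65, and P4hb, a subunit of prolyl 4-hydroxylase, gave -0.14, 8.27 and 2.86. Of 14 genes of matrix turnover 12 were tested and none passed. The median of the turnover genes was 0.51, but -0.058 in pools 1 and 3 alone, with -0.14, 1.23 and -0.11 in the single pools. Mmp2, a protease that cleaves collagen IV, was higher by 1.31, 3.90 and 1.03 (mean 2.08, SE 0.79). Among the inhibitors of such proteases, Timp3 was higher by 1.74, 0.83 and 1.64 and Timp4 lower in every pool, by differences of -2.38, -0.69 and -3.92, of which that of pool 2 was 0.42 with arrays centred on their medians. Both had a limma adjusted p of 0.895.

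**Figure D3:**
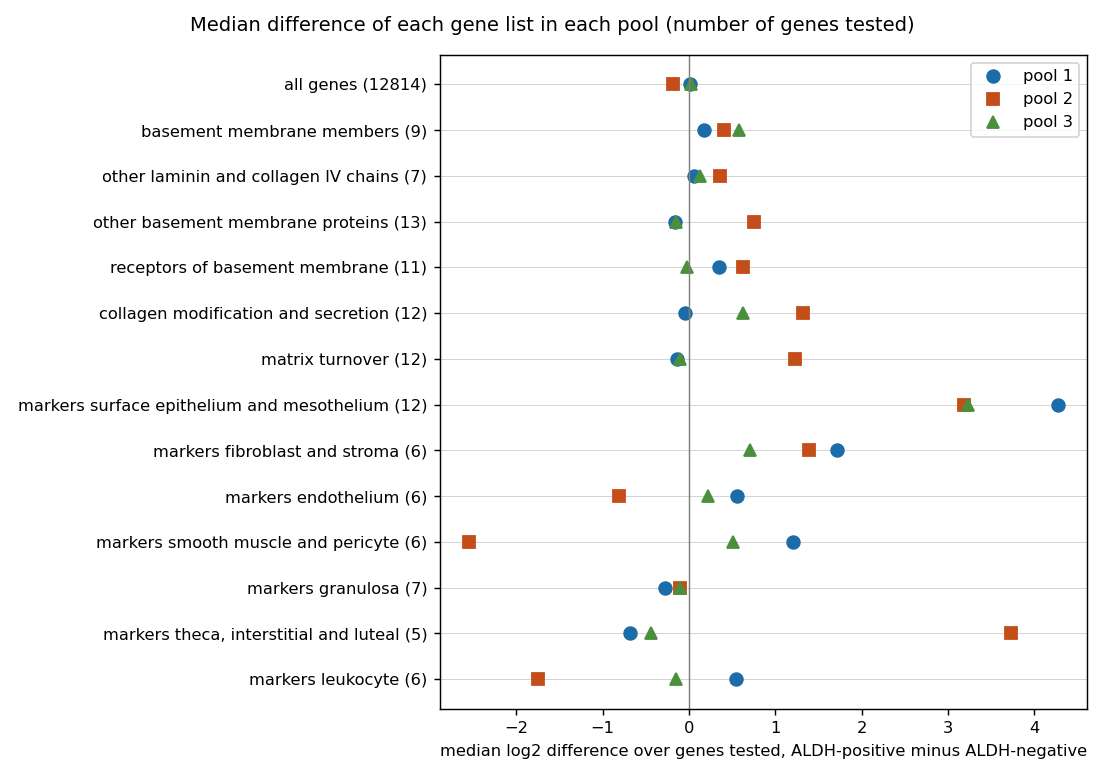
Points give, for each gene list, the median log2 difference between ALDH-positive and ALDH-negative cells in each pool, over the genes tested (number in brackets). The 10 basement membrane genes, of which 9 were tested, lie at 0.18, 0.41 and 0.58, the surface epithelium markers lie between 3.19 and 4.28, and the theca, interstitial and luteal markers are above 0 in pool 2 alone.

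Markers of other cell types moved unevenly with the fractions. The mean level over 8 fibroblast and stroma markers was 3.31 to 4.40 on ALDH-negative and 4.95 to 5.16 on ALDH-positive arrays, and 3 of 6 tested were higher in every pool. Over 8 smooth muscle and pericyte markers it was 3.44 to 5.30 and 4.59 to 4.83. Of the 6 muscle and pericyte markers tested, Acta2 and Tagln were higher in every pool and the other 4 lower in the mean (Myh11 gave 1.48, -3.30 and -1.33), with a median of -0.43, or 0.64 in pools 1 and 3. The 10 endothelial markers lay at 2.61 to 3.42 and 2.74 to 2.92, close to the filter level. Of the 6 endothelial markers tested, 3 were higher and 3 lower in the mean. Kdr (2.62, 1.43 and 0.26) and Esam (1.65, 0.03 and 1.41) were higher in every pool, and Eng (-0.75, -1.66 and -1.06) was lower. The pool 2 difference of Esam was -0.16 in the values as deposited. The 8 granulosa markers lay at 4.21 to 6.05 and 4.98 to 5.62, the 6 theca, interstitial and luteal markers at 4.84 to 8.53 and 7.75 to 8.08, and the 8 leukocyte markers at 2.68 to 4.29 and 2.59 to 3.65. The ALDH-negative array of pool 2 gave the extremes 5.30 (muscle), 3.42 (endothelium), 4.21 (granulosa), 4.84 (theca) and 4.29 (leukocyte). In pools 1 and 3 the theca, interstitial and luteal markers lay at 8.53 and 8.19 on ALDH-negative and 8.06 and 7.75 on ALDH-positive arrays. The part of these cells in the differences of the basement membrane genes was not tested.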

How the data were processed

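The authors deposited 1 value per probe set and array, from 0.035 to 13.06, taken here as log2 signal from that range; how they were summarised and normalized is not given in the sources used here. Per the labels' protocols, the Ovation Pico WTA System amplified the cDNA. Deposited medians differed by 0.46 between arrays, so after removal of 64 control probe sets the arrays were quantile normalized, and probe sets in the lower 40% by mean (level 2.73) were left out. GEO's platform annotation named 34945 probe sets with 1 symbol, 932 with several and 9160 with none; 34741 matched the RefSeq table of GRCm38.p6, and 0 symbols changed.

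The comparison used limma 3.58.1 (R 4.3.3) with pools as blocks. The fit was checked on simulated data with noise set well below that measured, so the check does not give the power in these data. The series design states 3 pools and a paired analysis, which gives the pairing. Deviations of same-numbered arrays correlated at 0.38, -0.19 and 0.35. The probe set of highest mean stood for a gene. Named genes are the 10 members with all probe sets, any other basement membrane gene listed, up to 3 tested genes of smallest p per other list, and the 5 nearest profiles. Members and lists were chosen with earlier results of these data known.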

Additional observations from a re-analysis of the deposited data

How the results depend on the processing

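With no replicate block, 0 probe sets were called, as with it. In this balanced design the block leaves each mean difference unchanged, so the directions could not differ. The same count of 0 came from the values as deposited, from arrays centred on their medians and under both other filters. Limma's array weights, lowest for pool 2 and by far highest for pool 3, gave 2953 called probe sets (10.9% of those tested). Among them were 3 member probe sets, 1 each of Lamb1 (adjusted p = 0.00759), Lamc1 (0.00934) and Nid1 (1.35, adjusted p = 0.0241). Leaving out 1 pool in turn called 0 to 7 probe sets, the 7 without pool 1, and 0 member probe sets. The median difference over the member genes moved from 0.19 to 0.73 in values as deposited, 0.89 with median centring, 0.50 without a filter, which adds Nid2, 0.40 with array weights, 0.42 without the ALDH-negative array of pool 2, and 0.46 with the mean of all probe sets of a gene. The median over all genes tested was -0.08, 0.08 and 0.25 under the 3 scalings, so the member median relative to it was 0.27, 0.65 and 0.65. Of 99 values of single genes under the alternatives, 6 turned sign. Hspg2 gave 0.32 as deposited and 0.49 median centred, Lamb2 0.27 with array weights, Lama4 0.058 with the mean of its probe sets and -0.88 to 0.055 without 1 pool, and Lama5 -0.62 to 0.94 without 1 pool, the negative value being that without pool 1. The cause was not tested. The count of member genes higher in the mean, added after seeing the data, was 6 of 9, against 46% of all genes tested. It was 5 to 7 under the alternatives. Of the 5 genes higher in all pools, Col4a1 was at -0.05 in pool 1 with median centring. Lama5 was higher in all pools as deposited and median centred, but not after quantile normalization. As deposited and median centred, its pool 2 differences of 0.21 and 0.63 were below the medians over all genes tested, 0.48 and 0.90. Without pool 2, Col4a1, Col4a2, Lama5, Lamb1, Lamb2 and Hspg2 moved by more than 1.5 times, to 0.067, 0.34, 0.94, 0.80, -0.086 and -0.21, while Lama4, Lamc1 and Nid1 moved by less.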
